A study of Mus musculus with 4 samples.

Results

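The insulin-like growth factor (IGF) axis was followed through 10 genes on the arrays, the ligands Igf1 and Igf2, the receptors Igf1r and Igf2r, and the binding proteins Igfbp2, Igfbp3, Igfbp4, Igfbp5, Igfbp6 and Igfbp7. Every probe that was not a control and carried one of these gene names was kept. This gave 15 probes of 55627, or 10 of 36391 gene names, with 5 probes for Igf1, 2 for Igfbp2 and 1 for each other gene. The probes were taken by name and not by their values. C2C12, a mouse myoblast line that grows as mononucleated cells and can be turned into myotubes, received either siRNA directed at Fxr1 (siFxr1) or a random control siRNA of the same GC content (siControl) by lipofection, and RNA was taken 48 hours later. Fxr1 encodes an RNA-binding protein of the fragile X family. Experiments 1 and 2 each gave 1 siFxr1 and 1 siControl sample, which makes 4 one-colour Agilent arrays, 2 per condition, and the arrays of an experiment shared a slide, so that experiment, culture and slide cannot be told apart. All samples come from a single cell line, and the RNA is from whole cultures, so a change in the number of producing cells cannot be told apart from a change per cell.

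IGF1 and IGF2 are small secreted proteins that bind the receptor tyrosine kinase IGF1R and, through IRS adaptors, PI3K and AKT, promote growth, survival and differentiation of myoblasts. IGF2R has no kinase, takes up IGF2 and carries it to lysosomes, and also sorts lysosomal enzymes. The binding proteins hold the ligands outside the cell, and most of them can lower or prolong IGF action depending on the proteases present. IGFBP7 binds IGFs only weakly.

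The study lists siRNAs against 2 exons of Fxr1, and the labels do not name the one used. By the study's text, the knockdown profiled on the arrays used the siRNA against exon 14. The siRNA against exon 6 was a second one, with which the quantitative RT-PCR was repeated. Both are shown. They are followed by the 250 bases before the RefSeq start of Igf1 and of Igfbp4, the 2 genes with probes at least 2-fold higher in siFxr1 in both experiments. Igfbp4 was above background on the siFxr1 arrays alone, so its place here is no support for a difference. Under each other background correction tried, it was not 2-fold higher in both experiments. Promoters are RefSeq sequences on GRCm38.p6, both on the plus strand, chr10:87860861-87861110 for Igf1 and chr11:99040994-99041243 for Igfbp4. Capitals mark CAGCTG, an E-box of the kind bound by myogenic factors, and TATAAA, the TATA box.
siFxr1 exon 14: gcaauccauacagcuuacuugaua
siFxr1 exon 6: gaaguugaugcuuauguccagaaa
Igf1 promoter: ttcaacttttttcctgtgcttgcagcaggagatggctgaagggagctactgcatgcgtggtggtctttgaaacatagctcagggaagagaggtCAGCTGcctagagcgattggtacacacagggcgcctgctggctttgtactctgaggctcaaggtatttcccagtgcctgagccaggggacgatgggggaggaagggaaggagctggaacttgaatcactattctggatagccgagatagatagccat
Igfbp4 promoter: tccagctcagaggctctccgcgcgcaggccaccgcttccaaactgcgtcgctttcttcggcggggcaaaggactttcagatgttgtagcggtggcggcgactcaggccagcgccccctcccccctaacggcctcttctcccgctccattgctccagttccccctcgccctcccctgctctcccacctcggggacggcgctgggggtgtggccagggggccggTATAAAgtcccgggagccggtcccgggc

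Searched on both strands, CAGCTG occurred at 1 place in the Igf1 window, 157 bases before the start, and TATAAA at 1 place in the Igfbp4 window, 28 bases before the start. The letters CCGCCC (the GC box) were in neither window. The Igf1 window had a GC content of 52.8% and the Igfbp4 window of 69.2%. Among 32851 mouse promoter windows of this length, 13% held CAGCTG, 12.4% held TATAAA and 32.7% held CCGCCC. In the 14 windows listed for the 10 genes, CAGCTG was found in 1 (Igf1), TATAAA in 2 (Igfbp4 and Igfbp6) and CCGCCC in 6. The motifs do not overlap one another by their letters, and their presence is a description of the sequence.

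The values are normalized log2 signals, that is, background-corrected brightness taken to log2 and set to a common distribution on the 4 arrays, so that a difference of 1 is 2-fold. A probe counted as above background where the scanner software marked at least 0.5 of its spots as well above it. On the arrays, 45.4% to 52.9% of the probes passed, and 0 spots were saturated. The Fxr1 probe A_51_P372463 had a signal of 13.85 and 13.71 in siControl and of 10.15 and 10.77 in siFxr1 of experiments 1 and 2, which bears out the labels. Myod1, which defines myoblasts, was bright on every array, as 5 of 6 myoblast markers were above background. None of the 4 adipocyte markers was above background, and of the macrophage markers Ptprc and Emr1 were not, while Csf1r and Cd14 were. The mean log2 signal of Csf1r and Cd14 was 10.65 and 10.72 in siControl and 10.98 and 11.24 in siFxr1, and that of 2 of 3 endothelial markers 5.36 and 6.10 in siControl and 5.69 and 6.49 in siFxr1. That of 3 of 4 fibroblast markers was 13.11 and 13.53 in siControl and 13.10 and 13.87 in siFxr1, and the part of such markers in the results was not tested.

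Of the 15 IGF axis probes, 0 were called in limma's moderated test with condition as its only term, where a call is a B value (the log odds of a change) above 0, against a background of 0% of all probes. That fit did not call the knocked-down gene Fxr1 either. Its 2 probes had log2 fold changes of -3.31 and -3.61 (limma adjusted p = 0.950 at both). A probe that this fit does not call can therefore still differ. By unadjusted p under 0.05 in limma, 2 of the 15 probes passed, a probe of Igf1 and that of Igfbp4. So did 2761 of all 55627 probes, about what that threshold lets through where nothing differs. After adjustment 0 of all probes had a limma p under 0.05. When the experiment was added as a block and probes were left out unless some condition had both of its arrays above background, 4 of 14 IGF axis probes had a B value above 0, all higher in siFxr1, beside 0.827% of the 25523 probes fitted. These 4 are 3 probes of Igf1 and that of Igfbp4. Counted by size without a test, the same 4 probes were at least 2-fold higher in siFxr1 in both experiments, against 1.94% of the 25523 probes that passed the same filter, and 0 were at least 2-fold lower, against 1.72%. Because 2 of the 3 Igf1 probes share 40 bases, these are not 4 separate measurements. Igfbp4 and Igf1 A_55_P2085974 passed the filter only through their siFxr1 arrays, as did Igf1 A_55_P2031636. Passing in this way favours probes that read higher in siFxr1, so the calls and counts of these probes are no support. With only the 11 IGF axis probes above background on all 4 arrays, the 2 overlapping Igf1 probes were left at 2-fold (1.12% of all 23485 such probes) and were also the 2 with a B value above 0 in the blocked fit (0.771%). Without any filter, both siFxr1 arrays lay above both siControl arrays at 6 of the 15 probes and below them at 0, beside 12.7% and 22.8% of all 55627 probes.

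**Figure D1:**
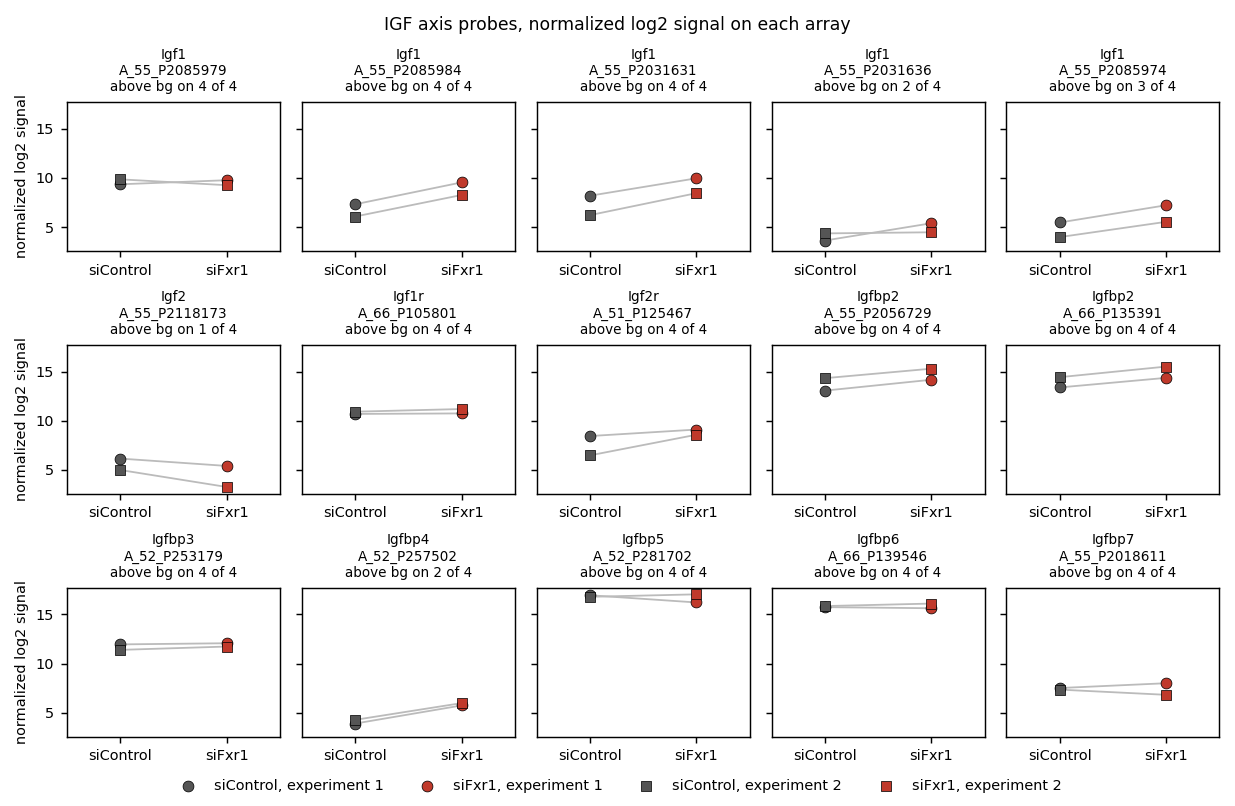
Normalized log2 signal of the 15 IGF axis probes on the 4 arrays, with colour for the condition, shape for the experiment and a line joining the arrays of an experiment. Both siFxr1 arrays lie above both siControl arrays for 6 probes, 4 of Igf1 and those of Igf2r and Igfbp4, and the reverse holds for 0, beside 12.7% and 22.8% of all probes.

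The ligand Igf1 was higher in siFxr1 in both experiments at 4 of its 5 probes, and at the 2 of these above background on all 4 arrays, which overlap, by 3.42-fold to 4.70-fold within an experiment. The 5 probes lie on the plus strand of chromosome 10 of mm9, and their exons were not looked up because no annotation of that build was used here. Igf1 is in the study's own list of changed transcripts, which was drawn from these arrays, so its direction is not independent evidence.

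A_55_P2085984 (87393561 to 87393620) had a signal of 7.32 and 6.08 in siControl and of 9.55 and 8.27 in siFxr1, in the order of experiments 1 and 2. Both siFxr1 arrays lay above both siControl arrays, with a gap of nearly the same size in each experiment, 2.22 and 2.19. Its log2 fold change was 2.21 (limma, SE 0.71, adjusted p = 0.975). The spread within a condition came from the gap between experiments 1 and 2, which was alike in both conditions, and with the experiment as a block and dim probes left out the SE was 0.23 and the limma adjusted p 0.030. The log2 fold change was 1.45 with no background correction. A_55_P2031631 (87393581 to 87393640), which overlaps it, read 8.19 and 6.22 in siControl and 9.97 and 8.46 in siFxr1. Its log2 fold change was 2.00 (limma, SE 0.98, adjusted p = 0.975, and 0.038 with the block and filter). The siFxr1 arrays were again the higher ones, but the array of siControl experiment 1 rests on 2 spots that read 7.54 and 8.85, while the spots of the other arrays lay within 0.20 of each other.

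A_55_P2085974 (87399581 to 87399640), the probe farthest along the gene, gave 5.48 and 3.99 in siControl and 7.23 and 5.54 in siFxr1. It was above background on 1 siControl array and on both siFxr1 arrays, and the conditions did not overlap by a margin of only the difference between 5.48 and 5.54, because experiment 2 was lower in both conditions. Within the experiments siFxr1 was higher by 1.75 and 1.55, and the log2 fold change was 1.65 (limma, SE 0.89, adjusted p = 0.975, and 0.046 with the block and filter). On the siControl array of experiment 2 it was not well above background, so these differences are not exact folds. The log2 fold change was 0.64 with normexp and 0.57 with no background correction. The probe passed the filter only through its siFxr1 arrays, so the limma adjusted p of 0.046 is no support.

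The remaining probes of Igf1 differed from these. A_55_P2031636 (87395924 to 87395983) lies between them and read 3.64 and 4.37 in siControl, where neither array was above background, and 5.40 and 4.48 in siFxr1, where both were. With each siControl array raised to its lowest signal above background, siFxr1 was 1.30-fold higher, which is not a strict lower bound. The log2 fold change of this probe was 0.94, but 0.19 with normexp and 0.14 with no background correction. Nearly all of its measured difference came from experiment 1, at 1.76 against 0.11 in experiment 2, and its 2 spots on the siControl array of experiment 1 were 2.04 apart. A_55_P2085979 (87378456 to 87378515) lies 15105 to 21125 bases before the start of the other probes and is annotated with another transcript, NM_184052, which is not among the Igf1 accessions of the RefSeq table used here, while that of the other 4 probes is. It read 9.36 and 9.86 in siControl and 9.77 and 9.27 in siFxr1, so the conditions overlapped and the difference had opposite signs in the experiments, 0.41 and -0.59 (log2 fold change -0.09, limma, SE 0.32, adjusted p = 0.992).

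**Figure D2:**
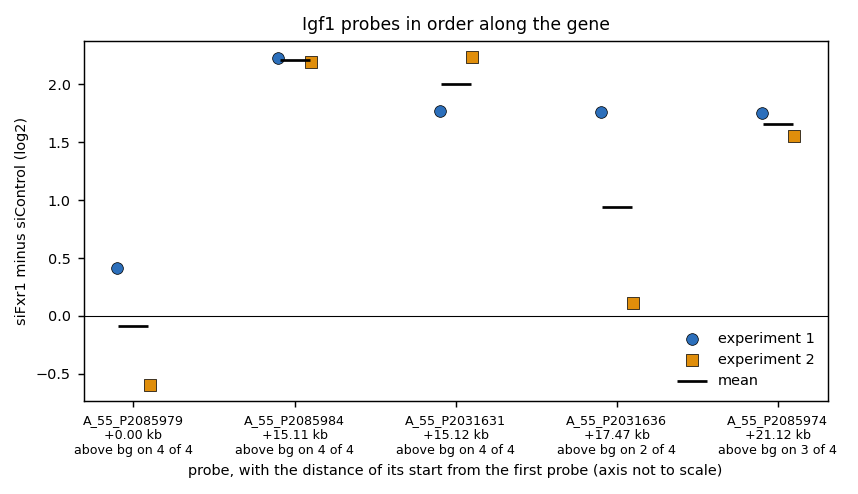
Difference between siFxr1 and siControl (log2, vertical axis) at the 5 Igf1 probes in genomic order, with a circle for experiment 1, a square for experiment 2 and a bar for their mean; distances from the first probe and the number of arrays above background stand below each probe. The probe at 0 kb lies on both sides of 0, 3 probes lie between 1.55 and 2.23 in both experiments, and A_55_P2031636 gives 1.76 and 0.11.

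Igf2, the fetal ligand that myoblasts release as they differentiate, was dim. Its probe (A_55_P2118173, chromosome 7 of mm9, minus strand, 149839661 to 149839720) read 6.16 and 4.999 in siControl and 5.41 and 3.27 in siFxr1, and only the siControl array of experiment 1 was above background. It was lower in siFxr1 in both experiments, with differences of -0.75 and -1.73, and the conditions overlapped. The log2 fold change was -1.24 (limma, SE 0.96, adjusted p = 0.975) and ranged from -1.24 to -0.21 over the processing alternatives. It was -0.17 without the siFxr1 array of experiment 2 and -2.31 without that of experiment 1. It was the sole one of the 10 genes without both arrays of a condition above background.

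Of the receptors, Igf1r was the steadier. Its probe (A_66_P105801, chromosome 7, 75378461 to 75378520) read 10.69 and 10.92 in siControl and 10.75 and 11.19 in siFxr1. The conditions overlapped, with differences of 0.05 and 0.27 in the experiments and a log2 fold change of 0.16 (limma, SE 0.24, adjusted p = 0.975). Igf2r is measured by a probe printed in 10 spots (A_51_P125467), for which the array's annotation gives a stretch of only 11 bases on chromosome 17, so its position is left out. It read 8.45 and 6.48 in siControl and 9.11 and 8.58 in siFxr1. Both siFxr1 arrays were above both siControl arrays, but the siControl array of experiment 2 stood apart from the other 3, so that the difference was 0.66 in experiment 1 and 2.10 in experiment 2. The log2 fold change was 1.38 (limma, SE 0.81, adjusted p = 0.975), and 0.40 without that array against 2.36 without siControl of experiment 1. The spots of an array had an SD of 0.06 to 0.18, far less than the gap between the siControl arrays, after 2 outlier spots were left out.

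Among the binding proteins, Igfbp4 and Igfbp2 were higher in siFxr1 in both experiments, Igfbp3 was higher by little, and Igfbp5, Igfbp6 and Igfbp7 went one way in one experiment and the other way in the other. Igfbp4, which holds IGFs until a protease such as pappalysin cuts it, is measured by A_52_P257502 (chromosome 11, 98913334 to 98913393). It read 3.90 and 4.28 in siControl, where neither array was above background, and 5.74 and 5.98 in siFxr1, where both were. The conditions did not overlap, and the arrays of a condition lay close together. With each siControl array raised to its lowest signal above background, siFxr1 was 2.45-fold higher. That floor is not a strict lower bound. The measured log2 fold change was 1.77 (limma, SE 0.23, adjusted p = 0.950, and 0.041 with the block and filter), with 1.84 in experiment 1 and 1.70 in experiment 2. Because the probe passed the filter only through its siFxr1 arrays, the limma adjusted p of 0.041 is no support. With neither siControl array above background, these differences are not exact folds. Igfbp4 was also the sole IGF axis probe with a B value above 0 when the 4 ratios of siFxr1 over siControl arrays were fitted as observations, beside 1.03% of all probes higher in siFxr1. Those ratios share arrays, so that fit understates the error. The log2 fold change was 0.86 with median minus local background, 0.52 with normexp and 0.42 with no background correction.

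Igfbp2, a binding protein with its own cell-surface contacts through integrins, has 2 probes whose starts lie 136 bases apart on chromosome 1 (72898677 to 72898736 and 72898813 to 72898872), and they gave the same picture. A_55_P2056729 read 13.06 and 14.32 in siControl and 14.17 and 15.29 in siFxr1, and A_66_P135391 read 13.39 and 14.43 against 14.36 and 15.51. In each experiment siFxr1 was higher, by 1.11 and 0.97 at the first probe and by 0.98 and 1.08 at the second, but siControl of experiment 2 lay above siFxr1 of experiment 1, so that the conditions overlapped. The log2 fold changes were 1.04 and 1.03 (limma, SE 0.68 and 0.62, adjusted p = 0.975). With the block and filter the limma adjusted p was 0.101 at both probes, and neither was called. Leaving out 1 array moved the first from 0.40 (without siControl of experiment 1) to 1.67 (without siControl of experiment 2), and the second from 0.45 to 1.60 (without siFxr1 of experiment 2 or 1). Both probes were above background on every array, and A_66_P135391 was at least 2-fold higher in both experiments under each other background correction that was tried, while Igfbp4 was under none of them.

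The other binding proteins were above background on all 4 arrays. Igfbp3, the main carrier of IGFs in blood (A_52_P253179, chromosome 11, minus strand, 7106594 to 7106653), read 11.95 and 11.39 in siControl and 12.06 and 11.73 in siFxr1, a log2 fold change of 0.23 (limma, SE 0.29, adjusted p = 0.975) with overlapping conditions. Igfbp5, a binding protein known for its expression in differentiating myoblasts (A_52_P281702, chromosome 1, minus strand, 72904829 to 72904888), read 16.94 and 16.78 in siControl and 16.21 and 17.03 in siFxr1, a difference of -0.73 in experiment 1 and of 0.25 in experiment 2. Igfbp6, which prefers IGF2 (A_66_P139546, chromosome 15, 101979852 to 101979911), read 15.73 and 15.84 in siControl and 15.62 and 16.09 in siFxr1. The siFxr1 arrays of both genes lay on either side of the siControl arrays. Igfbp7 (A_55_P2018611, chromosome 5, minus strand, 77778271 to 77778330) did the same, with 7.51 and 7.35 in siControl and 8.00 and 6.82 in siFxr1. The log2 fold changes of Igfbp5, Igfbp6 and Igfbp7 were -0.24, 0.07 and -0.02, with SEs of 0.36, 0.24 and 0.49 and limma adjusted p-values of 0.975, 0.992 and 0.998.

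Over the 11 IGF axis probes above background on all 4 arrays, 7 were higher in siFxr1 in both experiments and 0 were lower in both, with a median log2 fold change of 0.23. Over all 23485 probes so filtered, 32.7% were higher in both and 31.1% lower in both, with a median of 0.01. Of all 15 IGF axis probes, dim ones included, 10 were higher in both and 1, that of Igf2, was lower in both. Over all 55627 probes without a filter, 23.3% were higher in both and 35.6% lower in both. The 10 probes are 4 of Igf1, 2 of Igfbp2 and those of Igf1r, Igf2r, Igfbp3 and Igfbp4, so that 1 gene makes up 4 of them. The siFxr1 sample of experiment 1 had an RNA integrity number of 8 and the other 3 samples of 9, and the part of RNA quality was not tested.

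**Figure D3:**
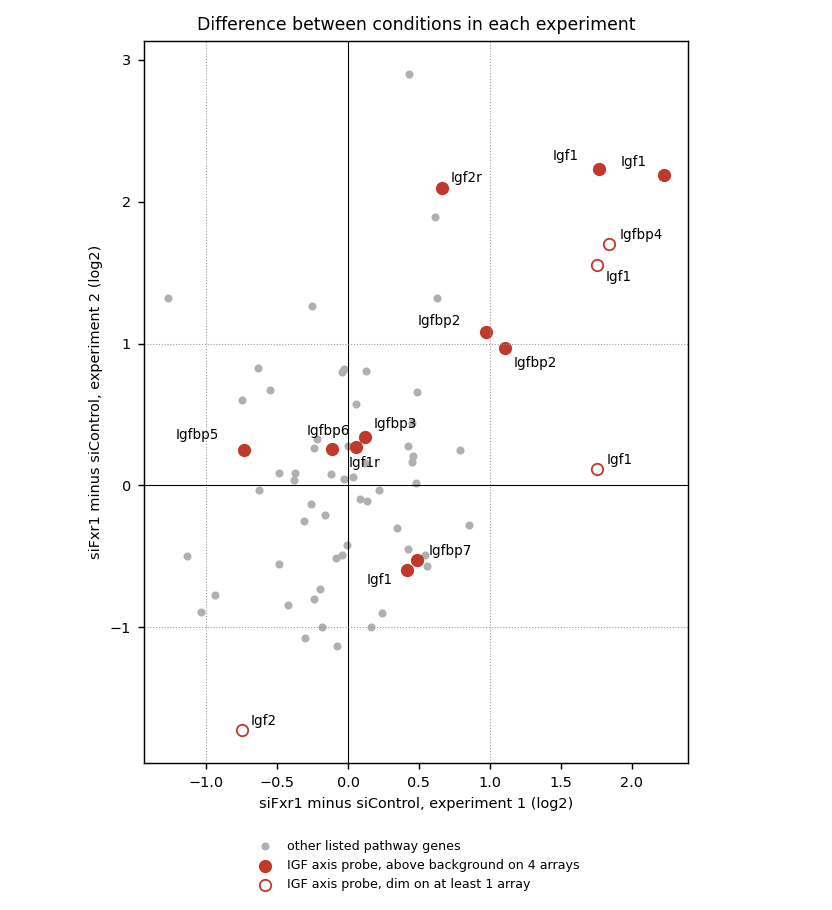
Difference between siFxr1 and siControl in experiment 1 (horizontal axis, log2) and experiment 2 (vertical axis, log2) for the IGF axis probes (red, open where a probe was not above background on all 4 arrays) and for the other listed genes of the pathway that passed the filter on dim probes (grey), with dotted lines at 2-fold. In the upper right corner, past 2-fold in both experiments, lie 3 Igf1 probes and Igfbp4, and none of the grey points. Of these, Igfbp4 and Igf1 A_55_P2085974 passed that filter only through their siFxr1 arrays, and the other Igf1 probes there overlap. The listed genes Foxo3 (2.32 and 1.18) and Inpp5d (1.23 and 3.22) also passed 2-fold in both experiments, but the filter left them out of the grey points.

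The experiments were compared in the same probes. For experiment 2 against experiment 1, the limma model with condition and experiment gave 0 of 15 IGF axis probes a B value above 0. Of all probes, 1.19% had one. An unadjusted limma p under 0.05 was found at 6 of the 15, beside 11166 of all 55627 probes. Counted by size, 3 of 14 probes (A_55_P2085984, A_55_P2031631 and A_55_P2085974 of Igf1) were at least 2-fold lower in experiment 2 in both conditions, against 5.53% of the 25523 filtered probes. Both Igfbp2 probes were at least 2-fold higher, against 5.45%. After scaling to the 75th percentile only 1 of these 5 probes remained at 2-fold.

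For the 3 Igf1 probes, experiment 2 minus experiment 1 was -1.24, -1.97 and -1.48 in siControl and -1.28, -1.51 and -1.68 in siFxr1, with fitted differences of -1.26, -1.74 and -1.58 (limma adjusted p = 0.123, 0.115 and 0.113). For the Igfbp2 probes it was 1.26 and 1.04 in siControl and 1.12 and 1.14 in siFxr1, fitted as 1.19 and 1.09 (limma adjusted p = 0.130 and 0.138). The 2 conditions gave differences of the same sign at each of these probes. They were close to each other except at A_55_P2031631, with -1.97 in siControl and -1.51 in siFxr1. With normexp a probe of each gene was called, A_55_P2031631 at -1.33 and A_55_P2056729 at 1.28 (limma adjusted p = 0.012 and 0.013). After scaling to the 75th percentile the Igfbp2 differences were 0.68 and 0.56 (limma adjusted p = 0.49 and 0.64).

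For Igf2, experiment 2 minus experiment 1 was -1.16 in siControl and -2.14 in siFxr1, from a level at or near background. For Igf2r it was -1.96 in siControl and -0.52 in siFxr1, with the low siControl array of experiment 2 behind the first value. Igfbp3 was also lower in experiment 2 in both conditions (-0.56 and -0.34), as was Igfbp7 (-0.16 and -1.18). Igf1r (0.34), Igfbp4 (0.31) and Igfbp6 (0.29) had small fitted differences, and Igfbp5 differed in opposite directions in the conditions.

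Markers of differentiating muscle moved with the experiments as well. Of 8 such markers 7 were above background, all 7 were lower in experiment 2 in both conditions, and their median difference was -2.12, while the median log2 fold change of siFxr1 against siControl was -0.10. Their mean log2 signal was 14.22 in both conditions of experiment 1 and 12.17 (siControl) and 11.82 (siFxr1) in experiment 2. Myog, the myogenin gene, read 15.64 and 13.50 in siControl. The part of this difference between the cultures in the Igf1, Igf2 and Igfbp2 values was not tested.

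**Figure D4:**
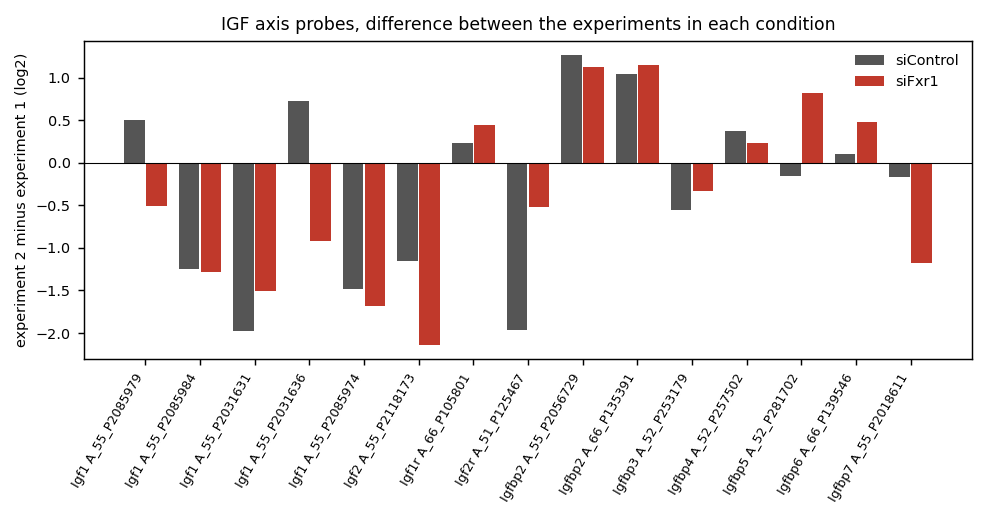
Experiment 2 minus experiment 1 (log2, vertical axis) for each IGF axis probe in siControl (grey bars) and siFxr1 (red bars), 1 array each. The bars of 3 Igf1 probes lie between -1.97 and -1.24 and those of Igfbp2 between 1.04 and 1.26 in both conditions, while A_55_P2085979, A_55_P2031636 and Igfbp5 have bars on both sides of 0.

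Other genes of the pathway were followed through lists with 1 probe per gene. Of 16 regulators of ligands, binding proteins and their processing, 11 were above background, and 5 were higher and 3 lower in siFxr1 in both experiments (median log2 fold change 0.03). Of 15 genes of receptor-proximal signalling, 12 were above background, with 4 higher and 4 lower (median 0.02). Of 26 genes from PI3K to mTOR, 25 were above background, with 5 higher and 9 lower (median -0.01), and of 11 FoxO factors and targets 8 were, with 1 higher and 1 lower (median 0.09). In none of the 4 lists was a gene called by limma, either with condition alone (0% of all probes) or with the block and filter, and in none did a gene that passed the filter reach 2-fold in both experiments. Of all 25523 filtered probes, 33.2% were higher and 31.0% lower in siFxr1 in both experiments, with a median of 0.02. The probes of 2 more listed genes passed 2-fold in both experiments but were not above background on both arrays of a condition.

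A few of these genes act directly on the members and are given with their values, chosen after the values were seen. Pappa, the protease that cuts Igfbp4, read 7.27 and 5.56 in siControl and 7.70 and 8.47 in siFxr1, a difference of 0.43 in experiment 1 and 2.90 in experiment 2. Stc2, whose protein inhibits pappalysins, differed by 0.63 and 1.32. Igfbp1, the binding protein that insulin represses in liver, and Igfals, which joins Igfbp3 in the circulating complex, were not above background on both arrays of either condition. H19, the noncoding RNA expressed from the locus next to Igf2, was lower in siFxr1, with differences of -0.43 and -0.84. None of these genes was called by limma in either fit.

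The genes whose pattern over the 4 arrays was nearest to that of Igf1 depended on the probe. For the brightest, A_55_P2085979, the nearest named gene was LOC100045241 at a distance of 0.036 (Euclidean, log2 signals after subtracting each probe's mean), and 3095 probes lay within 0.5, so this pattern was a common one. For A_55_P2031631, tried after the data were seen, 12 probes lay within 0.5, led by Cilp at 0.25, LOC629206 at 0.29 and Muc4 at 0.33. With 4 arrays these distances are descriptions.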

How the data were processed

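RNA of 2 siFxr1 and 2 siControl samples was labelled with Cy3 and hybridised to 1 array each. The authors deposited the spot intensity as read by Agilent Feature Extraction 10.7.3.1, background-corrected within the array and not normalized between arrays, and a table of normalized intensity that ranks spots as the raw median does, which served as an alternative. Per the study's methods, quantile normalization, limma and a B value above 0 were used and no block was named. They also say that ratios from all comparisons were averaged, but not which ratios entered the B test. The study listed changed transcripts on this basis, Igf1 among them. The fit with condition alone called 0 of 55627 probes here, so it did not reproduce that list.

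Here log2 of the deposited background-corrected intensity was quantile-normalized, outlier spots were left out, and the spots of a probe were averaged (R 4.3.3, limma 3.58.1). All 55627 probes with a value on every array were fitted with lmFit and eBayes (expected share of changed probes 0.01) and adjusted by Benjamini-Hochberg. For a condition without an array above background, signals were raised to the lowest signal above background of each array. This floor is not a strict bound. An exact two-sided permutation test of 2 against 2 arrays cannot give a p under 0.333, so none was run. The number of arrays limits the precision.

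The labels number the experiments, whose arrays shared a slide, so the numbers pair the samples. Deviations of same-numbered samples from the condition means correlated at 0.714.

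On simulated data of the same layout (20000 probes, 200 changed by 3 on the log2 scale), the fit recovered 173 with condition alone and 200 with the block. False calls were 0 and 37. The simulated spread was set by hand and not taken from these arrays. On the arrays the fit with condition alone called 0 of 55627 probes, so the recovered counts do not carry over to them. Members and lists were chosen with earlier results of these data known. All probes of the members are given, and in a list each gene is represented by the probe above background on most arrays and then the brightest, with genes named at 2-fold in both experiments. Alternatives were scaling to the 75th percentile, normexp (offset 50), median intensity minus background, no correction, the deposited table, a dim filter, the block, both together, the 4 ratios, a variance trend and leaving out each array. A filter on all 4 arrays was added after the data were examined.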

Additional observations from a re-analysis of the deposited data

How the results depend on the processing

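For siFxr1 against siControl, 0 of 15 IGF axis probes had a B value above 0 under every scaling and background correction, the deposited table, the dim filter alone, the trend, the replicate block alone and each left-out array. The count was 4 with the replicate block and dim filter together, 1 with the 4 ratios and 2 with the block on probes above background on all 4 arrays. The last filter also lowered the 4 probes at 2-fold to 2, by leaving out the dim ones. The 4 became 6 after scaling to the 75th percentile, which added both Igfbp2 probes. They became 3 under each of the other 4 processings, namely Igf1 A_55_P2085984 and A_55_P2031631 with Igfbp2 A_66_P135391.

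For experiment 2 against experiment 1, where 0 probes were called, the count was 2 with normexp, 1 with median minus background, 3 with no correction, 3 with the deposited table, 2 with the dim filter and 1 with the trend. Leaving out an array left that model with 0 residual degrees of freedom, so it gave values without a test. The 5 probes at 2-fold between the experiments became 1 after scaling to the 75th percentile and 2 with each of the other 4 values.

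Directions turned at probes with small differences, and the cause was not tested. For siFxr1 against siControl, Igfbp7 was 0.051 at the 75th percentile, 0.011 with normexp, 0.043 with median minus background, 0.039 with no correction and 0.042 in the deposited table. Leaving out single arrays gave log2 fold changes that ranged from -0.34 to 0.16 for Igf1 A_55_P2085979, from -0.059 to 0.39 for Igf1r, from -0.051 to 0.51 for Igfbp3, from -0.65 to 0.17 for Igfbp5, from -0.17 to 0.31 for Igfbp6 and from -0.61 to 0.57 for Igfbp7. Without siControl replicate 2 the value of Igf1 A_55_P2031631 was 1.02 and without siControl replicate 1 it was 2.99, and that of A_55_P2085974 was 0.81 without siFxr1 replicate 1 and 2.49 without siFxr1 replicate 2. Between the experiments, Igf1 A_55_P2085979 was 0.039 at the 75th percentile, 0.0025 with median minus background, 0.0048 with no correction and 0.0089 in the deposited table, and ranged from -0.506 to 0.502 with an array left out. Igf1 A_55_P2031636 was 0.33 at the 75th percentile and 0.047 with median minus background, and ranged from -0.92 to 0.73. Igfbp4 was -0.047 with median minus background. Igfbp5 was -0.27 and Igfbp6 -0.299 at the 75th percentile, and Igfbp5 ranged from -0.16 to 0.83. Dim probes are limited by their signal over background.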
